A study of Mus musculus with 25 samples.

Results

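The cells outside the immune compartment were compared between peri-injured and injured regions of the same fibrosing lung. By the labels, the non-immune segment of a region is its DNA-positive area without CD45, the marker carried by leukocytes. The authors' worksheet names these segments only as Other, beside CD68. Whether they hold leukocytes without CD68 could not be checked. Of the 24 tissue segments of the series, 9 belong to this comparison and were chosen by their labels alone. These are the non-immune segments of the 4 peri-injured regions (6, 9, 10 and 12) and of the 5 injured regions (4, 5, 7, 8 and 11).

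All 9 segments came from a male SP-CI73T mutant mouse at day 14 after tamoxifen, which the labels give as a single gavage of 175 mg/kg, whereas the study's methods describe a different schedule with more than 1 gavage. The mice carry mutant surfactant protein C at its own locus, and a Flp-O recombinase under control of the estrogen receptor removes a neomycin cassette from the allele after tamoxifen, which raises expression of the mutant protein. The 3 healthy regions (1, 3 and 13) came from a male mouse of the same genotype given oil, labelled untreated at day 0. They are in neither class. They served for the choice of probes kept, the spread, the principal components, a depth of thinning and values side by side. Regions were chosen on histopathology, by inflammation and epithelial thickening and remodeling, and the study describes regions of a class as technical replicates. Regions 6 and 10 were chosen nearer to the injury and regions 9 and 12 farther from it. Since the peri-injured and the injured regions share 1 animal, every p-value given here is over regions of these sections, leaves out the variation between animals and is thus too small for any statement on them. In the study's own annotation the tissue number of region 4 is that of the control lung while its treatment is that of the induced lung, and the leading counts are given without this region too.

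Surfactant protein C is made by alveolar type II cells, which secrete surfactant and renew the gas-exchange surface. The I73T substitution misroutes the protein in these cells, and carriers develop interstitial lung disease. A non-immune segment of lung can hold alveolar and airway epithelium, endothelium, fibroblasts, smooth muscle and their matrix, in proportions that shift as alveoli are remodeled. Segments are read in bulk, so that fewer cells of a type and less RNA per cell cannot be told apart in any value below. In the assay (GeoMx), probes are hybridized to the section, ultraviolet light frees the probe barcodes of the chosen segment, and these are sequenced and counted once per molecule. The files name the 20175 probes by barcode identifier only and do not pair them with genes. Probes are therefore described by their values, the labelled compartment could not be checked against its markers, and no probe sequence is shown.

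The classes overlapped in depth but not in the share of background. The 4 peri-injured segments held 558129 (region 6), 279999 (9), 671249 (10) and 201239 (12) counts. The injured segments held 297817 (region 4), 350101 (5), 431992 (7), 472015 (8) and 498411 (11), inside the range of the peri-injured ones. The background, estimated from the 2018 least abundant probes, made up 30.4%, 34.1%, 31.5% and 31.7% of the counts of peri-injured regions 6, 9, 10 and 12. It made up 40.8%, 37.9%, 37.8%, 40.5% and 38.5% of injured regions 4, 5, 7, 8 and 11, and the groups did not overlap. The means were 31.9% ± 1.57 (SD, n = 4) and 39.1% ± 1.42 (SD, n = 5), with a two-sided exact permutation p of 0.0159, the smallest that 4 against 5 segments can give, and 0.127 after Benjamini-Hochberg adjustment over 8 measures. Of these measures (total count, raw reads, area, counts per area, probes with a count, background share, share of the 100 most abundant probes and sequencing saturation), none passed the adjustment. Counts per 1000 units of area averaged 9736 ± 1117 (SD, n = 4) for the peri-injured regions and 8556 ± 915 (SD, n = 5) for the injured ones, with overlapping ranges and an exact permutation p of 0.127 before adjustment. The background share thus lay apart by region class in these segments without passing the adjustment. Its part in the results below was not tested beyond the values given beside them. Being a share of counts in scarce probes, it is also not independent of the trend with abundance given below.

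**Figure D1:**
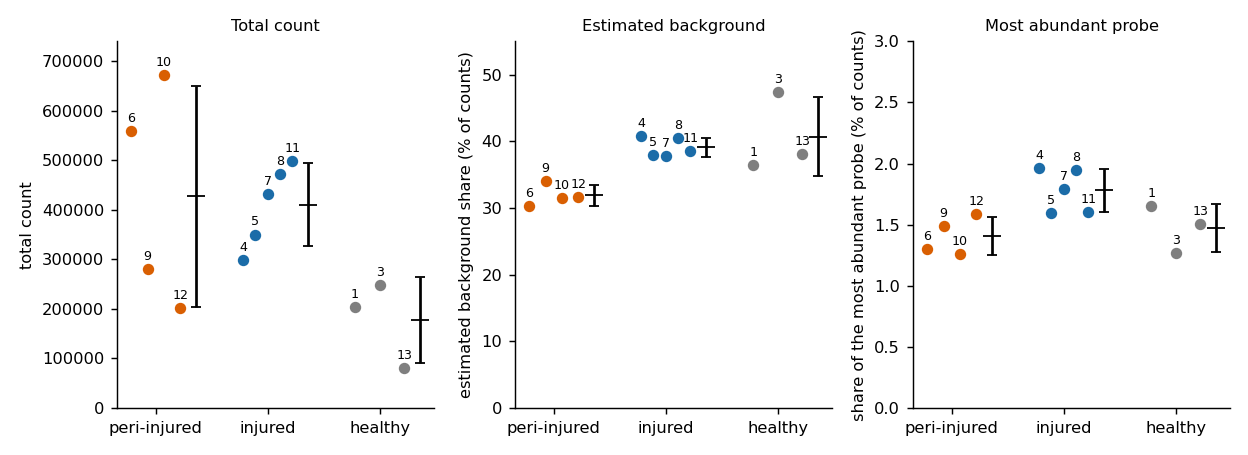
Total count, estimated background share and share of the most abundant probe (each on the vertical axis, the last 2 as percent of counts) in the non-immune segments, each dot 1 segment labelled by its region, with the mean and SD in black. Peri-injured background shares lie between 30.4% and 34.1% and injured ones between 37.8% and 40.8%, while the totals overlap.

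Many of the abundant probes differed between the classes. Among the 6000 probes kept for their mean share of the counts, 1585 (26.4%) were called at a Benjamini-Hochberg adjusted p under 0.05 by edgeR's quasi-likelihood test on counts scaled to their upper quartile (Q3). Of these, 634 (10.6% of those tested) were higher and 951 (15.8%) were lower in peri-injured than in injured segments. The balance of directions followed the scaling. TMM factors gave 868 higher and 413 lower calls, DESeq2's size factors gave 827 higher and 457 lower ones, and the median log2 fold change over all kept probes was -0.17 with Q3 and -0.03 with TMM factors, so that Q3 scaling sets every change about that much lower. The 634 higher probes were all called higher under TMM and under DESeq2's size factors, whereas 413 of the 951 lower probes were called under TMM.

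Most of the called changes were modest in size, and the smallest in either direction was 0.45 on the log2 scale. The median was 0.82 on the log2 scale (1.77-fold) for probes called higher and -0.72 (1.65-fold lower) for probes called lower, with a median standard error of 0.21 over the called probes. Of the higher probes 201 were above a log2 fold change of 1 and 12 above 2. Of the lower probes 88 were below -1 and 4 below -2.

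The range of the 4 peri-injured values and that of the 5 injured values were disjoint for 378 of the 634 higher and for 521 of the 951 lower probes. Over all 6000 probes 1061 (17.7%) did not overlap, 422 (7.03%) with the peri-injured segments above and 639 (10.7%) with them below. The calls rested partly on single segments. Leaving out region 6 left 806 calls, region 10 left 1056 and region 8 left 1049, and without region 4 there were 1193, of which 489 were higher and 704 lower. Of the calls of that last fit, 352 higher and 472 lower ones had groups that did not overlap. The share over all 6000 probes is not given for that fit. Groups overlap less readily with a segment fewer, so these counts cannot be set against the 17.7%. Of the called probes, 333 higher and 277 lower ones were called in the same direction whichever of the 9 segments was left out. Called in each of these fits, under TMM, under DESeq2's size factors, by DESeq2 and by limma, and without overlap of the groups, were 261 higher and 178 lower probes.

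Where a probe stood in the order of abundance went with its direction. Ranked by the mean of both class means, the first 1000 probes held 344 higher and 115 lower calls, and their median log2 fold change was 0.28. The next 1000 held 159 higher and 108 lower calls, with a median of 0.04. From there the higher calls thinned out to 68, 35, 16 and 12 per 1000 probes, while the lower calls grew to 148, 155, 208 and 217. The median log2 fold changes of these last 4 groups were -0.14, -0.23, -0.32 and -0.37. The last of them had a median of 15.5 normalized counts against 44.9 in the first. Ranked instead by the healthy segments, which are in neither class, the order was alike, with medians from 0.18 in the first 1000 to -0.30 in the last. Under TMM scaling the medians ran from 0.43 to -0.22. With each segment's estimated background per probe taken off the counts, they ran from 0.28 to -0.36, and limma called 372 higher and 259 lower probes, of which 372 and 255 were called in the same direction above. Without that subtraction limma called 417 higher and 394 lower probes, so that more of the lower than of the higher calls were lost with it.

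**Figure D2:**
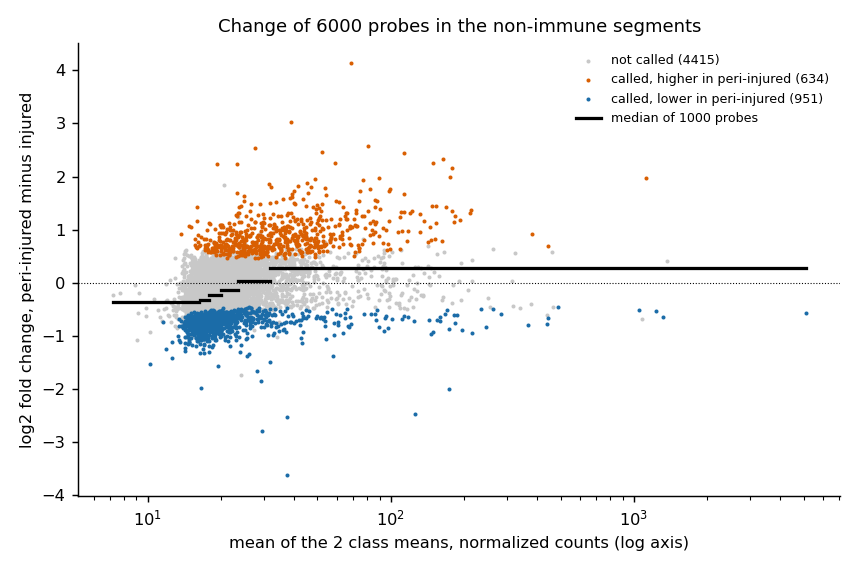
Log2 fold change (peri-injured minus injured, Q3 scaling) of each of the 6000 kept probes against its mean normalized count (log axis), each dot 1 probe, coloured by its call, with black lines at the median of each 1000 probes in order of abundance. The 634 higher calls lie towards the abundant end and the 951 lower calls crowd at the low end, with medians from 0.28 down to -0.37.

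The 100 most abundant probes departed from this order. Among them 25 were called higher and 29 lower, and their median log2 fold change was -0.03. A single probe was the most abundant in all 12 non-immune segments. It held 1.30%, 1.49%, 1.26% and 1.58% of the counts in peri-injured regions 6, 9, 10 and 12, and 1.96%, 1.60%, 1.79%, 1.95% and 1.60% in injured regions 4, 5, 7, 8 and 11. The groups met closely but did not overlap. Its log2 fold change was -0.56 (SE 0.15, adjusted p = 0.0109 by edgeR's quasi-likelihood test). It was called in 8 of the 9 fits that left out a segment and in 7 of 12 other settings, where the log2 fold change lay between -0.69 and -0.28 and the adjusted p between 0.000934 and 0.517.

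Together, the probes called higher held 14.7%, 12.1%, 14.4% and 13.0% of the counts of peri-injured regions 6, 9, 10 and 12, against 4.22%, 8.02%, 5.67%, 4.17% and 6.48% in injured regions 4, 5, 7, 8 and 11. The probes called lower held between 8.54% and 9.54% in peri-injured and between 11.5% and 13.4% in injured segments. These shares describe probes chosen on the same segments. The healthy segments were in neither class, though they shared in the choice of probes kept and in the spread. In them the higher probes held between 7.88% and 8.41% of the counts, next to injured region 5, and the lower probes between 10.1% and 11.5%.

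The probes with the largest changes whose groups did not overlap were read one by one. RTS0063542 had normalized counts of 101, 115, 183 and 155 in peri-injured regions 6, 9, 10 and 12, and of 11.5, 39.0, 18.9, 20.1 and 24.9 in injured regions 4, 5, 7, 8 and 11. Every peri-injured segment stood above every injured one, and injured region 5 was the nearest. The means were 139 ± 37.4 (SD, n = 4) and 22.9 ± 10.2 (SD, n = 5) normalized counts. The log2 fold change was 2.58 (SE 0.25, 5.99-fold), with an adjusted p of 2.05e-06 by edgeR's quasi-likelihood test. The raw counts were between 107 and 412 in the peri-injured segments, at least 22.8 times the background per probe, and between 10 and 41 in the injured ones, at least 1.66 times it. The 3 healthy segments held between 16.0 and 18.4 normalized counts, inside the range of the injured ones.

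RTS0078277 showed the same order. Its normalized counts were 202, 175, 160 and 230 in peri-injured regions 6, 9, 10 and 12, and 19.6, 39.0, 26.0, 19.4 and 69.4 in injured regions 4, 5, 7, 8 and 11. The groups were far apart, with injured region 11 the closest to the peri-injured segments. The log2 fold change was 2.44 (SE 0.31, 5.41-fold, adjusted p = 2.62e-05 by edgeR). The healthy segments held between 13.8 and 44.7 normalized counts and lay with the injured ones.

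RTS0075359 had the largest change of the probes that were lower in peri-injured regions. It had 5.11, 5.31, 5.77 and 5.81 normalized counts in peri-injured regions 6, 9, 10 and 12, and 33.4, 167, 48.1, 26.9 and 71.4 in injured regions 4, 5, 7, 8 and 11. The peri-injured segments were at a single low level, between 1.06 and 1.26 times the background per probe, and the injured ones spread widely above it, from 3.80 to 26.6 times the background. The log2 fold change was -3.63 (SE 0.46, 12.3-fold lower, adjusted p = 2.62e-05 by edgeR). Since the peri-injured counts were at background level, the fold is set by that level. The healthy segments, at 3.45 to 7.89 normalized counts, lay with the peri-injured ones.

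RTS0076055 was lower in peri-injured regions from a higher level. Its normalized counts were 46.0, 19.1, 64.7 and 14.5 in peri-injured regions 6, 9, 10 and 12, and 101, 489, 89.1, 207 and 189 in injured regions 4, 5, 7, 8 and 11. Regions 6 and 10 held more of it than regions 9 and 12, and injured region 5 held the most. The log2 fold change was -2.48 (SE 0.47, 5.56-fold lower, adjusted p = 0.00102 by edgeR). The healthy segments, at 36.8, 38.0 and 129 normalized counts, reached from the peri-injured into the injured range. Each of the 4 named probes was called in the same direction in all 9 fits that left out a segment, in which the log2 fold change lay between 2.40 and 2.83 for RTS0063542, 2.28 and 2.87 for RTS0078277, -3.84 and -3.04 for RTS0075359, and -2.90 and -1.91 for RTS0076055.

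**Figure D3:**
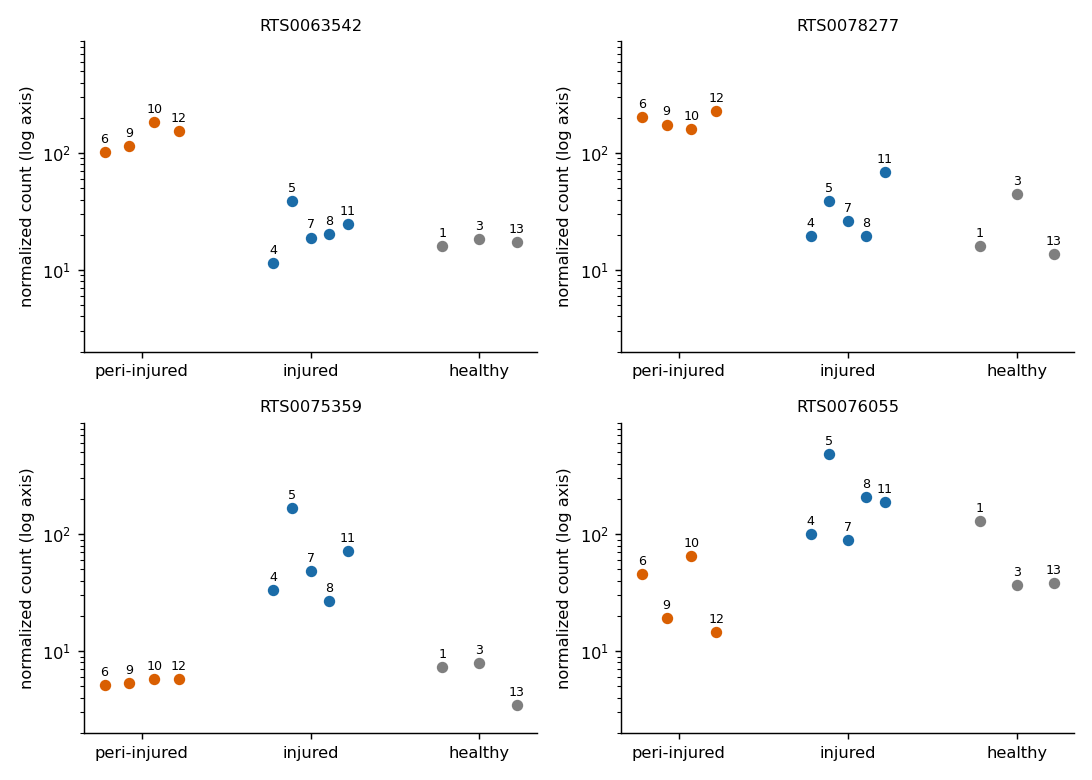
Normalized counts (log axis) of the 2 probes with the largest change in each direction among those called without overlap, each dot 1 non-immune segment labelled by its region. RTS0063542 and RTS0078277 are high in all 4 peri-injured segments, and RTS0075359 and RTS0076055 are high in the 5 injured segments, most of all in region 5.

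The next 8 probes in each direction were chosen by the same rule. The 8 higher ones had log2 fold changes between 1.97 and 2.26 and normalized counts from 17.0 to 2813 in peri-injured and of at most 975 in injured segments, with adjusted p-values of at most 0.00233 by edgeR. In 7 of them injured region 5 held the highest value of the injured segments. The 8 lower ones had fold changes that were lower by between 1.32 and 1.85 on the log2 scale and normalized counts from 3.10 to 19.4 in peri-injured and from 10.4 to 65.3 in injured segments, with adjusted p-values of at most 0.00874. All 16 were called in each fit that left out a segment. Under TMM, under DESeq2's size factors, by DESeq2 and by limma alike, 7 of the 8 higher and 7 of the 8 lower ones were called.

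The largest log2 fold change of all called probes, 4.13, belonged to a probe whose groups overlapped, and which is singled out here after its values were seen. Peri-injured region 6 held 497 normalized counts of it, 96.0% of the sum over the peri-injured segments. The other peri-injured segments held between 5.81 and 8.49, and the injured ones between 5.71 and 8.95. Without region 6 its log2 fold change was -0.13 (adjusted p = 0.895 by edgeR). Of the called probes, 16 higher ones had over 50% of the summed peri-injured values in 1 segment, and 4 lower ones had over 50% of the summed injured values in 1 segment.

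How far each segment followed its class was read from calls made without it. For each of the 9 segments in turn, probes were called on the others, and the left-out segment was placed above or below the midpoint of both class means. The lists of called probes ran from 806 without region 6 to 1788 without region 5. Shares of called probes are thus not like for like between segments, whereas those over all 6000 probes rest on 1 list. Peri-injured region 6 lay on the side of its own class for 95.1% of the probes called higher and 85.1% of those called lower without it, region 10 for 82.0% and 75.5%, region 12 for 80.3% and 64.9%, and region 9 for 79.3% and 63.0%. Over all 6000 probes the same share was 73.0%, 66.5%, 61.2% and 60.0%. The regions nearer to the injury were thus on their own side at least as often as the farther ones, and they were also the deepest of the peri-injured segments. Among the injured segments, region 8 lay on its own side for 95.4% and 88.5%, region 4 for 94.1% and 84.4%, region 7 for 87.7% and 83.8%, and region 11 for 77.3% and 75.2%. Over all 6000 probes their shares, in that order, were 74.5%, 72.8%, 70.1% and 65.3%. Injured region 5 stood apart from them, with 43.2% of the probes called higher and 59.0% of those called lower, against 53.1% over all probes. Region 5 held more counts than region 4 and fewer than regions 7, 8 and 11, and the part of depth in its position was not tested. On the probes called higher without it, the median difference of region 5 from the mean of the peri-injured segments was -0.41 on the log2 scale, against -1.25 for region 4 and -1.16 for region 8. Of the 634 higher probes, 367 had their highest injured value in region 5, and of the 951 lower probes, 324 had it in region 4, 328 in region 8 and 62 in region 5.

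**Figure D4:**
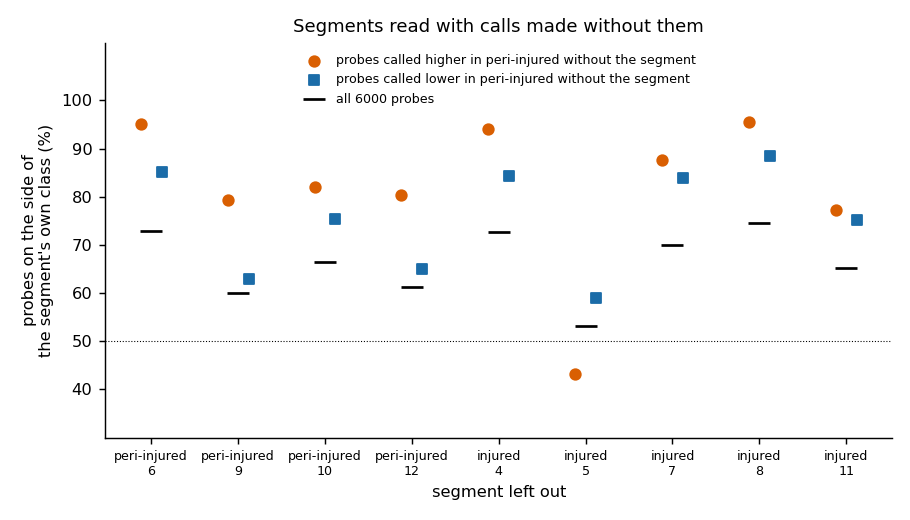
Share of probes (percent) for which a left-out segment lay on the side of its own class, for probes called higher (circles) and lower (squares) without that segment and for all 6000 probes (bars), with a dotted line at 50%. Region 8 reaches 95.4% and 88.5%, and injured region 5 stands at 43.2% and 59.0%.

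The profiles as a whole also lay apart by class. The mean Euclidean distance between log2 profiles over the 6000 probes was 51.6 between a peri-injured and an injured segment and 37.8 between 2 segments of a class, a ratio of 1.36 (jackknife SE 0.11 over the 9 segments). The nearest neighbour of regions 9, 10 and 12 was region 6, that of region 6 was region 10, and that of every injured segment was another injured one. The distance between the nearer regions 6 and 10 was 30.8, and that between the farther regions 9 and 12 was 42.6. The mean distances of the pairs from the injured segments were 51.6 and 51.5. Principal component 2 (26.2% of the variance over the 12 segments) placed peri-injured regions 6, 9, 10 and 12 at 26.1, 18.3, 24.6 and 21.8, and injured regions 4, 5, 7, 8 and 11 at -25.5, 2.17, -12.5, -23.6 and -7.09. Region 5 was again the injured segment nearest to the peri-injured ones. Component 1 (26.5%) set healthy region 13, the shallowest non-immune segment with 80259 counts, apart at 54.5, with all other segments between -17.1 and 6.36. With all segments thinned to 80259 counts, the ratio of distances was 1.11.

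Values against the healthy lung stand beside these for orientation, since they come from another mouse and both comparisons share the healthy segments. The called and the named probes were also chosen on these same peri-injured and injured values. That choice by itself tends to set the classes on opposite sides of healthy. The medians, counts and p-values against healthy are thus no separate evidence for these probes. In these comparisons 271 of the 6000 probes (4.52%) were called between peri-injured and healthy segments, 161 above and 110 below healthy. Between injured and healthy segments 143 (2.38%) were called, 46 above and 97 below healthy. The 634 probes higher in peri-injured than in injured regions had a median log2 fold change of 0.52 for peri-injured minus healthy, where the median of all kept probes was -0.003, and of -0.33 for injured minus healthy, where that of all kept probes was 0.15. Of them, 125 were called above and 2 below healthy in peri-injured segments, and 6 above and 49 below in injured segments. The 951 lower probes had medians of -0.32 and 0.43, with 0 called above and 48 below healthy in peri-injured segments, and 19 above and 12 below in injured segments. For RTS0063542 and RTS0078277, in that order, the log2 fold changes from healthy were 3.00 and 2.83 in peri-injured (adjusted p = 9.82e-06 and 0.000154 by edgeR) and 0.42 and 0.39 in injured segments (adjusted p = 0.579 and 0.650). RTS0075359 had 3.31 in injured segments (adjusted p = 0.00381 by edgeR) and -0.32 in peri-injured ones (adjusted p = 0.920). RTS0076055 was called on neither side, with 1.61 in injured (adjusted p = 0.102 by edgeR) and -0.87 in peri-injured segments (adjusted p = 0.442).

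The CD68 segments of the same regions, which hold the CD45+CD68+ macrophages, are separate libraries that did not choose these probes. They were shallower, with totals between 21955 and 119493 in the 9 regions. On the probes kept for the non-immune segments, 347 (5.78%) were called between peri-injured and injured CD68 segments, 283 of them higher (4.72%) and 64 lower (1.07%). Of the 634 higher probes 540 (85.2%) were above 0 in the CD68 segments too, with a median log2 fold change of 0.73. Of the 951 lower probes 779 (81.9%) were below 0, with a median of -0.53. Over all 6000 probes 46.2% were above 0 and 53.8% below, with a median of -0.06. The same sign in both compartments was met in 83.2% of the called probes and in 69.3% of all kept ones. Called in the same direction in both were 192 probes, 159 higher and 33 lower, which is 12.1% of the non-immune calls and 55.3% of the CD68 calls, and 8 were called in opposite directions. In the order of abundance given above, the CD68 medians fell too, from 0.42 in the first 1000 probes to -0.35 in the last. The higher and lower calls lay unevenly along that order, so the shares over all kept probes are not matched to them in abundance. How far abundance accounts for the shared signs was not tested.

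All 4 probes named above were also called in the CD68 segments by edgeR's quasi-likelihood test, from fewer counts. RTS0063542 had 9, 3, 6 and 8 raw counts in the CD68 segments of peri-injured regions 6, 9, 10 and 12, and 2, 6, 2, 2 and 3 in those of injured regions 4, 5, 7, 8 and 11, with a log2 fold change of 1.48 (SE 0.47, adjusted p = 0.0441). For RTS0078277 the log2 fold change was 1.83 (SE 0.37, adjusted p = 0.000321). RTS0075359 had 3, 0, 3 and 0 raw counts in the peri-injured and 5, 47, 15, 6 and 7 in the injured regions, with a log2 fold change of -2.87 (SE 0.56, adjusted p = 0.000138), and the highest count was again in region 5. For RTS0076055 it was -2.07 (SE 0.37, adjusted p = 3.08e-05). Of the next 8 probes per direction chosen by the same rule, all 8 higher ones had the same sign in the CD68 segments and 5 were called there, while 4 of the 8 lower ones had the same sign and 0 were called. The estimated background share of the CD68 segments also differed by class, between 27.4% and 34.7% in peri-injured and between 37.0% and 40.4% in injured regions.

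**Figure D5:**
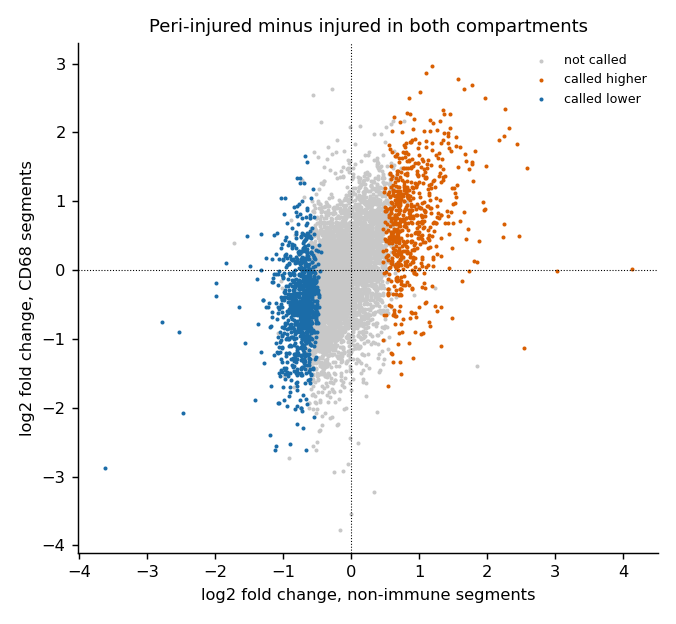
Log2 fold change (peri-injured minus injured) of each of the 6000 probes in the non-immune (horizontal axis) and the CD68 segments (vertical axis), each dot 1 probe, coloured by its call in the non-immune segments. Of the probes called higher 85.2% lie above 0 on the vertical axis, and of those called lower 81.9% lie below 0.

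Whether the change differed between the compartments was tested as an interaction in the 24 segments, with the region as a block. By edgeR's quasi-likelihood test 78 of 6000 probes (1.30%) were called, against 555 at an unadjusted p under 0.05. For 68 of them the change was lower in the non-immune than in the CD68 segments, and for 10 it was higher. Of the 68 probes, 40 were also among those kept for the non-immune segments. These had a median log2 fold change of -0.35 in the non-immune and of 1.53 in the CD68 segments, and 15 were called in the former and 35 in the latter. Over all 6000 probes kept for the non-immune segments, 26.4% were called in the former and 5.78% in the latter. In 31 of the 40 the change was above 0 in the CD68 segments and not in the non-immune ones. Of the 10 probes, 9 were kept, with medians of 0.54 and -1.69. These probes were chosen by the interaction test on the same segments, which by itself tends to set the compartments apart. Their medians and counts are thus no separate evidence for a difference. With all 24 segments thinned to 21955 counts only 2 calls were left, both lower. Without region 6 there were 44 calls, and without the block there were 49. For the 4 named probes the adjusted p of the interaction was between 0.533 and 0.965 by edgeR.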

How the data were processed

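Segments were grouped by their labels. Per the file headers, version 2.3.4 of the GeoMx NGS Pipeline matched the reads to probe barcodes and collapsed repeats of a molecule by its identifier, and the authors deposited the resulting counts per probe without scaling. Areas came from the authors' deposited worksheet, without a named unit. A probe not listed in a file was read as 0. The labels name build mm10, and no coordinates were used.

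Negative probes are not marked, so in place of the study's limit of quantitation the 6000 probes with the highest mean share over the 12 non-immune segments were kept. Counts were tested with edgeR 4.0.16 (R 4.3.3), the 3 region classes as terms and a Benjamini-Hochberg threshold of 0.05. The standard error is the log2 fold change divided by the square root of F. The interaction had the region as a block, since a region's CD68 and non-immune areas adjoin. The correlation of their departures from the class means ranged from 0.00065 to 0.139 in 12 pairs (median 0.062, 2 pairs over 0.1), against a median of -0.002 between different regions. For the background share, the mean count over 2018 probes (the least abundant in the other compartment) was multiplied by the number of probes and divided by the total. The 16 replicate pairs within a class differed by 1.05 to 2.05 times the chi-square per degree of freedom of sampling noise, so none was merged.

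The probes named are, among those called without overlap and with a mean of at least 10 counts over the 9 segments, the 2 with the highest and the 2 with the lowest log2 fold change. The members and lists were chosen with earlier results of these data known. DESeq2 1.42.0, limma 3.58.1, other scalings, filters, thinning and leaving out each segment were tried as alternatives. The edgeR test was checked on counts simulated with 200 of 6000 probes changed and no difference in background between the classes. It recovered 7% of 1.5-fold, 83.8% of 2-fold and 100% of 4-fold changes. False calls averaged 0.333, 5 and 8.33 per run, in that order. Smaller changes were thus mostly missed in that setting, which has far fewer changed probes than were called here. The reaction without tissue was not used here.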

Additional observations from a re-analysis of the deposited data

Results flagged for a closer look

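A group of results was set aside for a closer look, because the difference between the region classes was not the same in both compartments by a test of the difference itself. In the interaction fit with the region as a block, edgeR's quasi-likelihood test called 78 of 6000 probes, 10 with a higher and 68 with a lower change in the non-immune segments. Without the block 49 were called, and with all 24 segments thinned to 21955 counts only 2. Thinning evens the depth but also leaves far fewer counts, so unequal depth and lost power cannot be told apart in this loss. The median difference was -1.94 on the log2 scale for the 68 and 2.37 for the 10, over probes chosen by this same test. Estimated background shares differed between the classes in both compartments, and their part in these calls was not tested. In the 8 segment measures and the normalized counts of the 4 named probes, 24 groups of 4 or 5 segments were examined for a segment apart from the rest by Dixon's criterion, and 0 were found, where chance gives about 1 in 20.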

How the results depend on the processing

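No paired analysis was possible because peri-injured and injured regions share no region number, except in the interaction, where the fit without the replicate block called 49 probes against 78 with it. The count of 1585 calls was 977 by DESeq2, 811 by limma, 259 with all 12 segments thinned to 80259 counts, and, in alternatives chosen after seeing the data, 646 with the 9 segments thinned to 201239 counts and 631 by limma after background subtraction. It lay between 806 and 1788 when a segment was left out. Other filters moved the balance, with 1111 higher and 586 lower of 17037 probes by filterByExpr and 1131 higher and 420 lower with none. A minimum of 2 times the background removed no probe. The interaction's 78 calls were 2 after thinning to 21955 counts, and between 44 and 96 when a region was left out. The share of called probes with the same sign in the CD68 segments lay between 81.2% and 83.6% when a region was left out. The ratio of distances, 1.36, was 1.11 after thinning. The difference in the share of the 100 most abundant probes, 1.13 percentage points, lay between 0.832 and 1.38 with a segment left out, and its exact permutation p was under 0.05 only without region 5. The 4 named probes kept their direction and their call under all alternatives. The cause of these changes was not tested, apart from thinning, which by construction leaves fewer counts.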
